A study of Mus musculus with 3 samples.

Results

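The genes of the proteasome and of its dedicated chaperones and activators were described in CD4+ CD8+ double-positive (DP) thymocytes. They were the genes with a probe set of a single platform symbol in the families Psma to Psmg, pseudogene and interacting-protein names left out, each represented by its brightest probe set over the arrays. The rule gave 48 genes of 19938 with a symbol of their own, measured by 54 of the array's 35556 probe sets. The data were 3 Affymetrix arrays, each of DP cells from a separate cohort of C57BL/6 wild-type littermates aged 5 to 6 weeks. The cells were bead-sorted for CD8 and then CD4, and the labels' protocol also describes formaldehyde fixation before the sort without saying whether the cells used for RNA were fixed. All samples formed 1 group with no other treatment or genotype, so the comparisons were between subunit classes and between cohorts. No test between conditions was possible, and the 3 arrays limit the precision.

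The proteasome is the barrel-shaped protease that degrades ubiquitin-tagged proteins. Its 20S core is built of rings of alpha and beta subunits, and 3 of the beta subunits of each ring carry the active sites beta 1, beta 2 and beta 5. The 19S cap binds ubiquitin chains, unfolds the substrate with a ring of ATPases and feeds it into the core. In lymphoid cells and under interferon gamma the catalytic subunits are exchanged for immune forms (Psmb9, Psmb10 and Psmb8), which change the peptides offered on MHC class I. Cortical epithelial cells of the thymus, whose peptides DP thymocytes scan during positive selection, use a further beta 5 form, Psmb11.

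Background was judged from 113 genes that belong to other organs, such as liver or brain, and their 95th percentile (7.29, 7.44 and 7.37 on the log2 scale on arrays 1, 2 and 3) served as the limit. Of the proteasome genes, 46 of 48 exceeded it on every array, beside 41.6% of all genes, and the remaining 2, Psmb11 and Psma8, exceeded it nowhere. Under the stricter limit at their 99th percentile, 44 of 48 passed, beside 34.8% of all genes. The median level was 9.89 ± 0.05 for the proteasome genes and 6.85 ± 0.01 for all genes (log2, median over genes of the 3-array mean ± SD of the array medians, n = 3 arrays). The 3-array means of 43 of the 48 lay at or above the 75th percentile of all genes, beside 25% of all genes by construction. A probe set's signal depends on its probes, so levels are set against each other only between lists, and differences between arrays only within a probe set. In a bulk sample, fewer cells of a type and less RNA per cell cannot be told apart.

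Array 1 stood apart from the others. Its correlation with each of the others was 0.993, and theirs with each other 0.996 (Pearson's r over 28939 probe sets, which are not independent). Array 1 had a high value of Xist, the RNA of the inactive X chromosome (11.65, beside 5.40 and 5.68 on arrays 2 and 3), and a low value of the Y-linked gene Eif2s3y (4.21, beside 10.29 and 10.08), and the spread of both genes passed limma's variance test over all probe sets (adjusted p = 0.0087 each). These are the values of female cells on array 1 and of male cells on arrays 2 and 3. The labels give no sex, and a difference of sex and any other difference of the array 1 cohort cannot be told apart. Array 1 also had the highest values of the immediate-early genes Fos (9.39, 7.86 and 8.27 on arrays 1, 2 and 3) and Jun (11.01, 9.65 and 9.56), which, like Xist and Eif2s3y, were chosen after their values were seen. The DP markers Cd4, Cd8a, Cd8b1 and Rag1 lay far above background everywhere, with means of 11.74, 13.19, 11.96 and 13.51. Of 9 DP markers, 8 were nevertheless lowest on array 1, beside 41.3% of genes above background. The mean deviation of these markers from their own 3-array means was -0.16, 0.09 and 0.07 on arrays 1, 2 and 3.

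**Figure D1:**
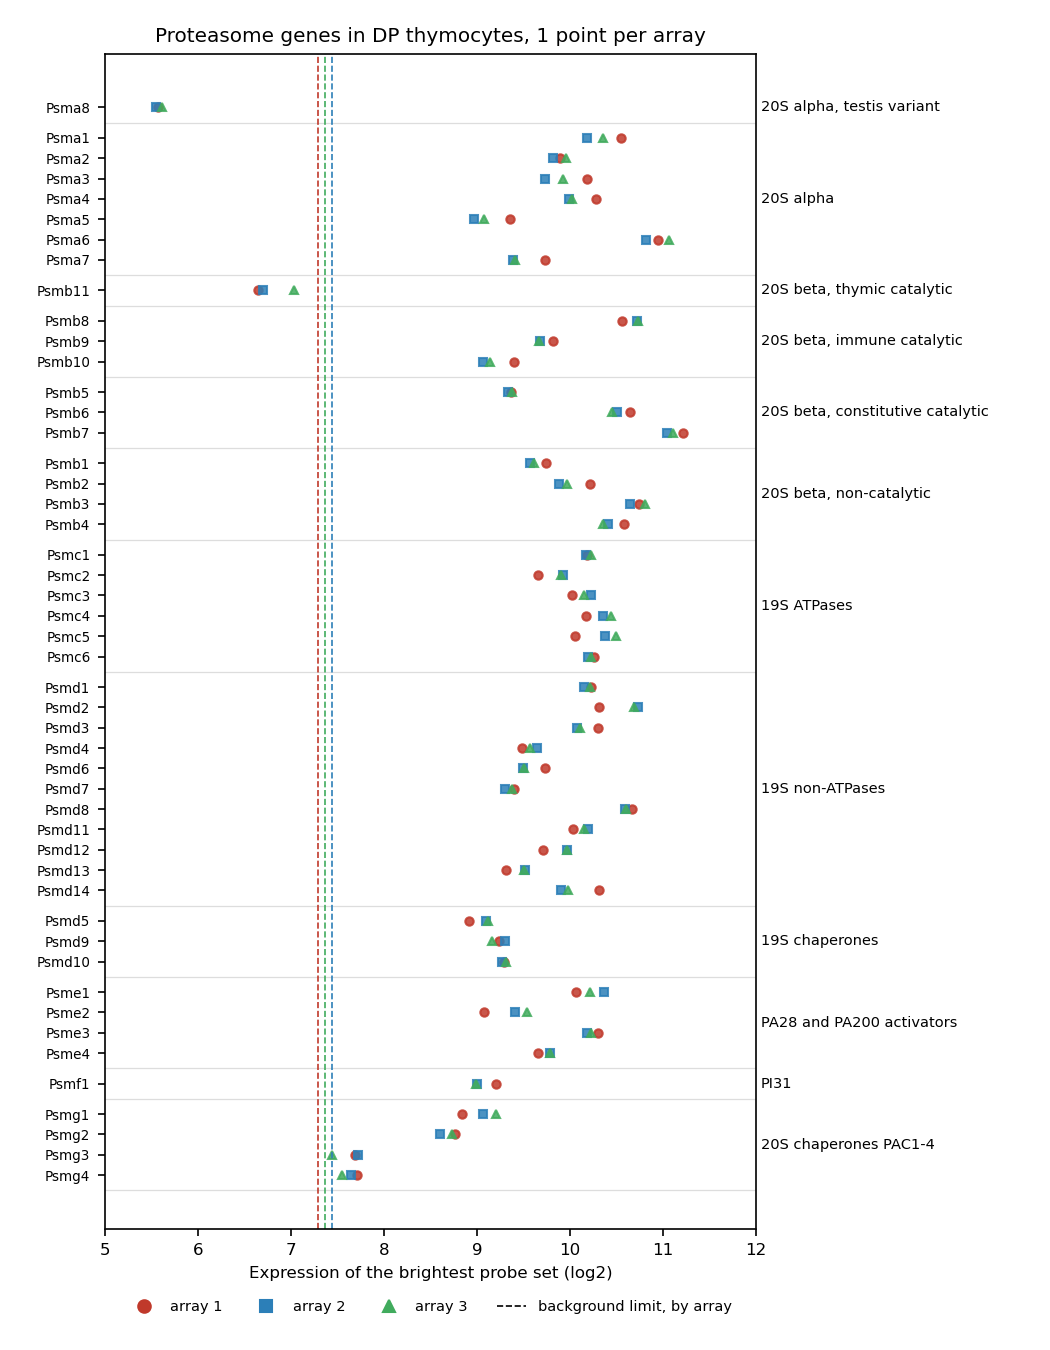
Expression of the 48 proteasome genes, grouped by role, with 1 point per array on a log2 axis and the background limit of each array as a dashed line. Psma8 and Psmb11 lie left of the limits on every array, Psmg3 and Psmg4 just above the limit of their own array, and the other 44 genes well above.

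The catalytic subunits separated by tissue form. The thymic subunit Psmb11 lay below background on all arrays, with 6.65, 6.70 and 7.03 on arrays 1, 2 and 3 (6.79 ± 0.21, mean ± SD, n = 3). The immune subunits Psmb8 (beta 5), Psmb9 (beta 1) and Psmb10 (beta 2) and the constitutive subunits Psmb5 (beta 5), Psmb6 (beta 1) and Psmb7 (beta 2) lay above it on every array. The sorted DP samples thus held signal of the immune and the constitutive set, while that of the thymic form was not above background.

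Among the immune subunits, Psmb8 had 10.56, 10.72 and 10.73 on arrays 1, 2 and 3 (10.67 ± 0.10), lowest on array 1. Psmb9 had 9.82, 9.68 and 9.67, and Psmb10 had 9.40, 9.06 and 9.14, both highest on array 1. The immune forms thus did not follow a single pattern over the cohorts. Among the constitutive subunits, Psmb5 had 9.37, 9.33 and 9.38, Psmb6 had 10.65, 10.50 and 10.45, and Psmb7 had 11.22, 11.04 and 11.11. Psmb5 varied by 0.05 log2 units in all, the least of these 7 genes, and the values of Psmb6 and Psmb7 were highest on array 1.

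**Figure D2:**
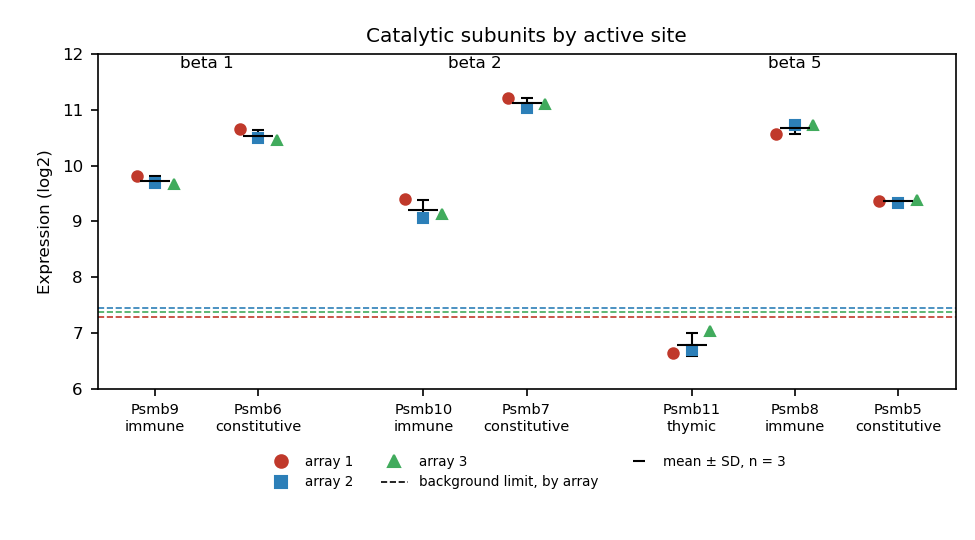
Expression (log2) of the catalytic subunits by active site, with 1 point per array, the mean and SD (n = 3) as bars and each array's background limit as a dashed line. Psmb11 alone lies below the limits; heights of different genes are not comparable, since their probes differ.

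The balance of immune and constitutive forms was nearly the same in the 3 cohorts. The mean deviation of the immune genes from their own 3-array means, minus that of the constitutive genes, was -0.012, 0.004 and 0.008 on arrays 1, 2 and 3, and no test was possible with 1 array a cohort. By active site the same difference was -0.02, -0.01 and 0.03 at beta 1 (Psmb9 minus Psmb6), 0.10, -0.06 and -0.05 at beta 2 (Psmb10 minus Psmb7) and -0.12, 0.08 and 0.04 at beta 5 (Psmb8 minus Psmb5). The small mean difference thus held departures of opposite sign at beta 2 and beta 5, each of about 0.1 log2 units on array 1. Without array 1 the difference on array 2 was -0.005 at beta 2 and 0.02 at beta 5, so both departures rested on array 1.

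The regulators and partners of the immune subunits, from the interferon pathway and class I peptide loading, were nearly all above background. Irf1, an interferon-induced factor known to act on immune subunit genes, had 10.99, 9.82 and 10.04 on arrays 1, 2 and 3, a spread that did not pass the variance test over all probe sets (limma, adjusted p = 0.591, Benjamini-Hochberg). Of 10 measured interferon regulators, 9 lay above background on all arrays, beside 41.6% of all genes. Among these 9 were Irf2 (mean 8.94) and Irf9 (7.93), while Irf8 exceeded the limit only on array 1 (7.78, 7.26 and 7.25). All 9 measured class I loading genes exceeded the limit on every array, beside 41.6% of all genes. Of the class I genes, 6 of 9 were lowest on array 1, beside 41.3% of genes above background. Calr (11.01, 10.48 and 10.46) and B2m, both chosen after their values were seen, were highest on array 1. The mean deviation of the list was -0.02, -0.02 and 0.04 on arrays 1, 2 and 3. Without array 1 the mean deviation of this list was -0.03 on array 2 and 0.03 on array 3. The peptide transporter gene Tap1, which lies beside Psmb9, had 9.61, 9.82 and 9.74, Tap2 had 9.82, 10.01 and 10.07, and the tapasin gene Tapbp had 10.10, 10.27 and 10.29. Like Psmb8, these transporter and tapasin genes and Tapbpl, the tapasin-related editor (mean 8.82), were lowest on array 1.

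Some markers of other cells moved between the same arrays. Of 18 myeloid and dendritic markers, 3 (Cst3, H2-Ab1 and H2-Eb1) exceeded the limit on every array, beside 41.6% of all genes. The defining genes Csf1r, Itgam, Itgax and Lyz2 exceeded it nowhere. The summed level of that list was 126.51, 119.3 and 123.04 on arrays 1, 2 and 3, with class II H2-Ab1 at 9.26, 7.91 and 8.50. The class II presentation genes Cd74 (8.83, 7.27 and 8.05), H2-Aa (8.44, 6.75 and 7.81) and H2-Eb1 (8.82, 7.77 and 8.40) had the same order. Of these, Cd74 and H2-Aa were chosen after their values were seen. These class II genes and H2-Ab1 had ranges of 1.05 to 1.69, and the other markers of the list at most 0.54. Of the 18 markers, 12 exceeded the limit nowhere, beside 10991 of all 19938 genes. On array 1, 11 of the 18 were highest and 4 lowest, beside 34.5% and 39.3% of all genes. Professional antigen-presenting cells are rich in immune subunits. Of the immune subunits, Psmb9 and Psmb10 were highest on array 1 and Psmb8 was lowest there. The part of the myeloid and dendritic markers in the values of Psmb8, Psmb9 and Psmb10 was not tested. Of 8 B cell markers 1 (Cd79b) and of 3 erythroid markers 0 exceeded the limit on every array, beside 41.6% of all genes. Cd79a and Ms4a1 exceeded it nowhere.

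For Psmb11 the cells in question are those of the cortical epithelium. Of 12 epithelial markers 3 (Ly75, Ccl25 and Ctsl) exceeded the limit on every array, beside 41.6% of all genes. It was exceeded nowhere by 7 of the 12, a share similar to that of all genes (10991 of 19938). Foxn1, the master factor of thymic epithelium, was among these 7 (6.29, 6.40 and 6.44). Krt8 (6.70, 6.83 and 7.55) and Krt18 (6.87, 6.90 and 7.58) exceeded background on array 3 alone, the array with the highest Psmb11 value. The markers did not all follow that order, since Prss16, the serine protease of cortical epithelium (6.61, 6.47 and 5.78), and Enpep (5.59, 5.88 and 5.46) were lowest on array 3, and Dll4 and Epcam, with Prss16 and Enpep chosen after their values were seen, were highest on array 2. The summed level of the list was 82.89, 85.04 and 86.16. The part of epithelial RNA in the Psmb11 values was not tested. With the background median plus 1 log2 unit as the limit, Psmb11 exceeded it on array 3, by 0.15.

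The thymic and the constitutive beta 5 gene are neighbours. In the RefSeq promoter table (GRCm38.p6) their starts lie 7.32 kb apart on chromosome 14 and point away from each other, and those of Psmb8 and Psmb9 lie 10.9 kb apart on chromosome 17. The 250 bases before the start of the beta 5 genes are printed because they differ in which short motifs they hold: Psmb11 at chr14:54625060-54625309 (plus strand), Psmb8 at chr17:34197945-34198194 (plus) and Psmb5 at chr14:54617996-54618245 (minus). Capitals mark matches, on either strand, to the letters searched, which were CCGGAAG (ETS), TGTGGTT (RUNX), CAGCTG or CAGGTG (E-box), GAAANNGAA (interferon regulatory factor), TGACNNNGC (antioxidant response element) and CCAAT.
Psmb11: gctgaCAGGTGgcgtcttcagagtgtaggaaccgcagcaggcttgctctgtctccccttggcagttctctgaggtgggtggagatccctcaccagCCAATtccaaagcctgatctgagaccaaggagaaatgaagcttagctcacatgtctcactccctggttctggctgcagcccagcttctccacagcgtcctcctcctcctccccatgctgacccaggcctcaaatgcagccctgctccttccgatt
Psmb8: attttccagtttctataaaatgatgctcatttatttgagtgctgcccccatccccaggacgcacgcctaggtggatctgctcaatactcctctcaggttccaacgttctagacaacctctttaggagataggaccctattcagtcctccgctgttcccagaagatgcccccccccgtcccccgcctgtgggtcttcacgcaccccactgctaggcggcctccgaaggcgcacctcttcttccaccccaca
Psmb5: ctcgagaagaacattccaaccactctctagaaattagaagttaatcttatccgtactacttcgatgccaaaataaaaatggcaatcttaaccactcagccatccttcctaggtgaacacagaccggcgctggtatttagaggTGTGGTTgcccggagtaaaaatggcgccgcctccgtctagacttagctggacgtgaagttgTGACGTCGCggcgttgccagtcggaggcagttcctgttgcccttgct

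The thymic gene's window held an E-box, the type of motif that E47 binds, and a CCAAT box. The Psmb8 window held none of the motifs, and the Psmb5 window held a RUNX and an antioxidant response match. An E-box match is present in 27.7% of all 32851 windows in the table, a CCAAT match in 33.8%, a RUNX match in 4.4% and an antioxidant response match in 10.2%. A match describes the letters only and is neither a shown binding site nor a cause.

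The alpha subunits, which form the gate of the core, were all above background except the testis variant. Psma8, which replaces Psma7 in developing sperm, had 5.57, 5.55 and 5.61 on arrays 1, 2 and 3, below background on each. The 7 standard alpha genes had means of 9.14 (Psma5) to 10.94 (Psma6). Psma3 had 10.18, 9.73 and 9.92, and its other probe sets had 10.10, 9.65 and 9.85, and 9.93, 9.46 and 9.66, so all of its probe sets gave the same order. Psma1 had 10.55, 10.18 and 10.35, Psma5 had 9.36, 8.97 and 9.08, and Psma7 had 9.73, 9.39 and 9.41. These genes and Psma4 were highest on array 1, whereas Psma2 (9.89, 9.82 and 9.96) and Psma6 (10.95, 10.82 and 11.06) were highest on array 3.

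The non-catalytic beta subunits behaved like the alpha genes. Psmb2 had 10.21, 9.88 and 9.97 on arrays 1, 2 and 3, Psmb4 had 10.58, 10.41 and 10.36, and Psmb1 had 9.74, 9.57 and 9.61. Psmb3 had 10.74, 10.64 and 10.81 and was highest on array 3, though its second probe set, with 10.25, 9.99 and 10.17, was highest on array 1. Over the 14 standard core genes (7 alpha, 4 non-catalytic beta and 3 constitutive catalytic), 10 were highest on array 1 and 0 were lowest there, beside 38.4% and 41.3% of genes above background. All 14 were higher on array 1 than on array 2 and 10 were higher on array 1 than on array 3, beside 46.8% and 48% of genes above background. The mean deviation of the core was 0.12, -0.10 and -0.02 on arrays 1, 2 and 3, and without array 1 it was -0.04 and 0.04 on arrays 2 and 3.

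The ATPases of the 19S cap, which unfold substrates, leaned the other way. Psmc5 had 10.05, 10.38 and 10.49 on arrays 1, 2 and 3, Psmc4 had 10.17, 10.36 and 10.44, and Psmc2 had 9.66, 9.92 and 9.90. Psmc3, with 10.02, 10.23 and 10.15, was also lowest on array 1, while Psmc1 (10.18, 10.17 and 10.23) and Psmc6 (10.26, 10.19 and 10.23) varied by under 0.1. The mean deviation of the 6 ATPases was -0.11, 0.04 and 0.07, with 4 of 6 lowest on array 1, beside 41.3% of genes above background. Without array 1 it was -0.02 and 0.02 on arrays 2 and 3. The DP markers deviated on array 1 by -0.16, as given above, and their part in the ATPase and core values was not tested.

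The difference between core and ATPases in mean deviation was 0.23, -0.14 and -0.09 on arrays 1, 2 and 3. Without array 1 it was -0.03 on array 2 and 0.03 on array 3, so its size rested on array 1. The comparison was chosen after the values were seen and was not tested, as 1 array a cohort allows none. No single gene passed a test either. The limma variance test over 28939 probe sets called 0 of the 54 proteasome probe sets at an adjusted p under 0.05, beside 0.0207% of all probe sets, and 0 of 54 had an unadjusted p under 0.05, beside 4.66%. The smallest unadjusted p was that of Psme2, at 0.067 (adjusted p = 0.988).

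**Figure D3:**
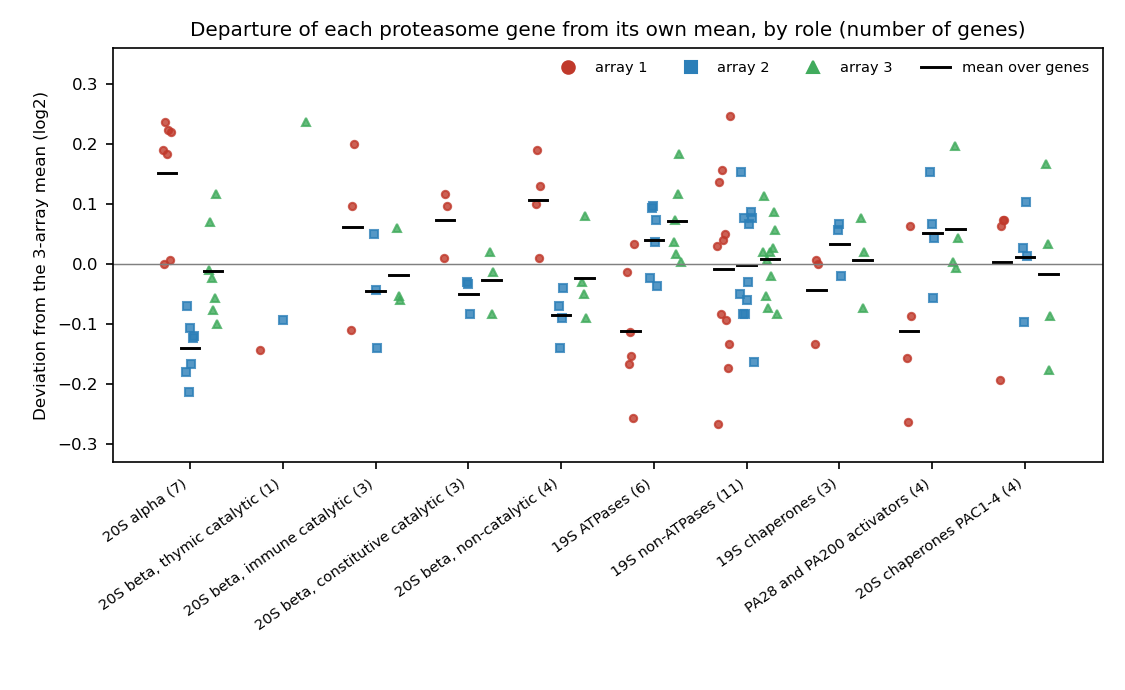
Deviation of each proteasome gene except Psma8 and Psmf1 from its own 3-array mean (log2), by role, with 1 point per gene and array and a black bar for the mean over genes. The array 1 points of the 14 standard core genes lie at or above 0, while those of 5 of the 6 ATPases lie below it and the non-ATPases spread to both sides.

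The non-ATPase subunits of the cap, which hold the ubiquitin receptors and the deubiquitinase, did not share a direction on array 1. All 11 lay above background, with means of 9.36 (Psmd7) to 10.62 (Psmd8). Psmd14, the deubiquitinase of the cap, had 10.31, 9.90 and 9.98 on arrays 1, 2 and 3. Psmd2, the large base subunit on which ubiquitin-like carriers dock, had 10.31, 10.73 and 10.69, and its second probe set 10.38, 10.62 and 10.66. Psmd14 was thus high and Psmd2 low on the same array. In all, 6 of 11 were highest on array 1 (Psmd1, Psmd3, Psmd6, Psmd7, Psmd8 and Psmd14) and 5 lowest (Psmd2, Psmd4, Psmd11, Psmd12 and Psmd13), beside 38.4% and 41.3% of genes above background, and the class mean deviated by -0.008, -0.001 and 0.009. Psmd4, a ubiquitin receptor, had 9.48, 9.64 and 9.57, and the lid subunit Psmd12 had 9.71, 9.97 and 9.97. Psmd1, the large base scaffold beside Psmd2, averaged 10.2 with an SD of 0.04, and Psmd7, the partner of Psmd14, averaged 9.36 with an SD of 0.05. The lid subunit Psmd6 had 9.73, 9.49 and 9.50, and the lid subunit Psmd13 had 9.31, 9.52 and 9.50, so lid genes lay on both sides. The lid genes Psmd3, Psmd8 and Psmd11 averaged 10.16, 10.62 and 10.12.

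Cap and core genes differed in how many promoter windows held the ETS core motif. This is the class of sequence bound by Ets1, which the project mapped in thymocytes of Rag2-deficient mice. Other motifs were searched too, each class had few windows, and no test was made. Promoter windows of 250 bases before the start were found for 40 of the 48 genes and gave 43 windows in all. The letters CCGGAAG, on either strand, lay in 1 of 12 windows of the standard core genes (8.33%), in 4 of 6 ATPase windows (66.7%) and in 5 of 9 non-ATPase windows (55.6%). These windows belonged to 11 core, 5 ATPase and 9 non-ATPase genes. The ATPase matches were those of Psmc1, Psmc2 and Psmc6, with Psmc2 counted in each of its windows. No window was found for Psmb1, Psmb2, Psmb7, Psmc3, Psmd3 and Psmd7. The letters lay in 13 of the 43 proteasome windows (30.2%), in 16% of 8577 windows of genes above background on all arrays and in 6.91% of all 32851 windows. Of the 13 matches, 10 lay within 100 bases of the start, at distances of 11 to 132 bases over all 13, and 0 overlapped another motif searched. The median GC content was 54.6% in core windows, 58.6% in ATPase windows, 57.6% in non-ATPase windows and 60.4% in windows of genes above background.

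**Figure D4:**
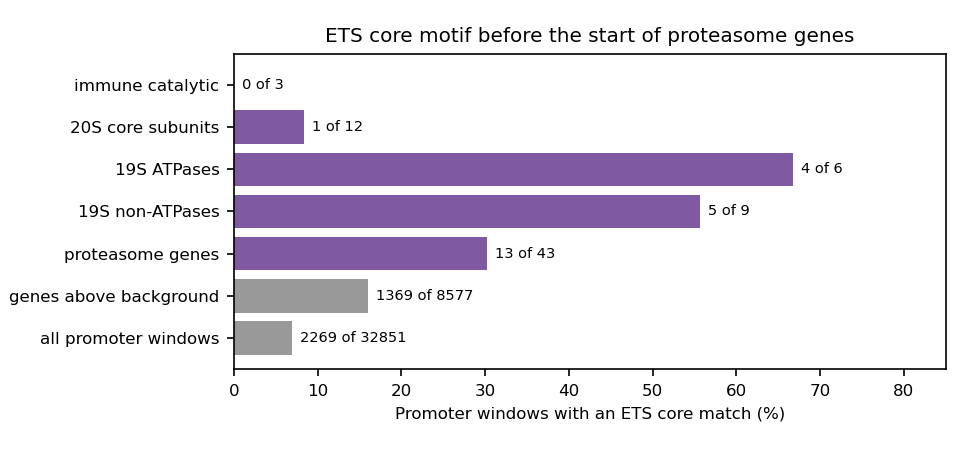
Share of 250-base promoter windows that hold the ETS core letters on either strand, in percent, with counts beside the bars. The 19S ATPase and non-ATPase windows reach 66.7% and 55.6%, and the 20S core windows 8.33%. Counts are of windows, not genes, with few in each class and no test.

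The match of Psma6, the lone core gene with one, and those of the cap genes are printed with up to 17 bases on each side, fewer where the start is nearer, because they carry the difference between cap and core. Each is written in the direction of its gene. Capitals mark the match, which reads CTTCCGG where it lies on the opposite strand. Psma6 is at chr12:55398676-55398716 (plus), Psmc1 at chr12:100110157-100110197 (plus), Psmc2 window A at chr5:21786706-21786746 (plus), Psmc2 window B at chr5:21785174-21785214 (plus), Psmc6 at chr14:45329707-45329747 (plus), Psmd2 at chr16:20651609-20651649 (plus), Psmd4 at chr3:95042716-95042756 (minus), Psmd6 at chr14:14120967-14121007 (minus), Psmd11 at chr11:80428587-80428614 (plus), Psmd12 at chr11:107479494-107479527 (plus), all in GRCm38.p6.
Psma6: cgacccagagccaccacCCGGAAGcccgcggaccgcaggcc
Psmc1: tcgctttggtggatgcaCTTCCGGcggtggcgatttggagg
Psmc2, window A: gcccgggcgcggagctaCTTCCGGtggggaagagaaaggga
Psmc2, window B: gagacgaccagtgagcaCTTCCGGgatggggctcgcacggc
Psmc6: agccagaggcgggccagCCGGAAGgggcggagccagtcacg
Psmd2: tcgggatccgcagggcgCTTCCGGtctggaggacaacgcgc
Psmd4: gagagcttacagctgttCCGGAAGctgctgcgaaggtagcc
Psmd6: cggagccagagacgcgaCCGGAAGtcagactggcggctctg
Psmd11: ggaacgcgagggcgggtCTTCCGGgtgt
Psmd12: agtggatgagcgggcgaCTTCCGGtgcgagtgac

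The match read as CTTCCGG in Psmc1, in both Psmc2 windows, in Psmd2, in Psmd11 and in Psmd12, and as CCGGAAG in the others. Further matches lay before Psme3, Psme4 and Psmg1. The 12 proteasome genes with a match had a mean deviation of -0.07, 0.02 and 0.05 on arrays 1, 2 and 3, and the 27 above background without one had 0.04, -0.03 and -0.01. Without array 1 the values on array 2 were -0.02 with a match and -0.01 without one. The match overlapped with subunit class, as Psma6 was the lone core gene with a match, and their parts were not tested. Among ATPases with a window, Psmc1, Psmc2 and Psmc6 held a match and deviated by -0.01, -0.17 and 0.03 on array 1. Psmc4 and Psmc5 held none and deviated by -0.15 and -0.26. Over all genes above background that have a window, those with a match (1270 genes) and those without (5473 genes) had -0.002 and 0.005 on array 1. All of these values were described without a test, and any part of the ETS letters in the array 1 values was not tested.

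The activators that open the core from outside the cap were all above background. Psme1 and Psme2 encode PA28 alpha and beta, which interferon gamma induces and which ease the release of class I peptides. Psme1 had 10.06, 10.37 and 10.22 on arrays 1, 2 and 3, and Psme2 had 9.08, 9.41 and 9.54, both lowest on array 1. A second probe set that holds Psme2 is shared with its near-identical copy Psme2b and was not used, and signal of the copy on the Psme2 probes cannot be told apart. Psme3, the nuclear PA28 gamma, had 10.30, 10.18 and 10.23, and Psme4, the PA200 activator, had 9.66, 9.79 and 9.79. Psmf1, which encodes the inhibitor PI31, averaged 9.06 with an SD of 0.12.

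The assembly chaperones included the proteasome genes nearest to background. Psmg1 and Psmg2 encode PAC1 and PAC2, which seed the alpha ring, and averaged 9.03 and 8.70. On arrays 1, 2 and 3, Psmg3 (7.69, 7.72 and 7.44) and Psmg4 (7.71, 7.65 and 7.55), which encode PAC3 and PAC4, exceeded the limit by 0.07 to 0.42 and did not reach the stricter 99th percentile on any array. The cap chaperones Psmd5, Psmd9 and Psmd10 had means of 9.04, 9.23 and 9.29, and Psmd10 varied by 0.04 over the arrays.

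Partners of the proteasome outside the Psm families were all above background, 11 of 11 measured, beside 41.6% of all genes. The list held 17 symbols, aliases among them, and the rest were not measured. Sem1, the small lid subunit, had 9.92, 10.48 and 10.70 on arrays 1, 2 and 3, a range of 0.78 that was wider than that of any of the 48 genes (at most 0.46), with an unadjusted p of 0.0093 and an adjusted p of 0.987 in the limma variance test. Pomp, the maturation chaperone of the core, had 10.38, 10.74 and 10.73. Sem1 and Pomp were lowest on array 1, so Pomp did not share the array 1 values of the core genes it helps to assemble. Of the 11 partners, 5 were highest on array 1 and 5 lowest, beside 38.4% and 41.3% of genes above background. Usp14 and Uchl5, deubiquitinases that dock on the cap, averaged 8.75 and 9.54. Nfe2l1, a factor known to drive proteasome genes when activity is short and chosen after its values were seen, had 8.79, 9.08 and 8.87.

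The proteasome genes differed between cohorts by small steps. Their median SD over the arrays was 0.116, beside 0.111 for all genes and 0.093 for genes above background. The median absolute difference between arrays 1 and 2 was 0.17 for proteasome genes and 0.13 for genes above background, and between arrays 2 and 3 it was 0.065 and 0.07. Without array 1 the median SD of the 48 genes was 0.046. As a list, the 48 genes had mean deviations of 0.01, -0.02 and 0.01 on arrays 1, 2 and 3. The array 1 value held classes of opposite sign, among them 0.12 for the 14 core genes, -0.11 for the 6 ATPases and -0.21 for PA28 alpha and beta.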

How the data were processed

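The authors deposited 1 log2 value for every probe set in each of the 3 samples. Per the labels' protocols, total RNA was extracted with TRIzol, amplified and labelled with an Affymetrix kit. Per the submitters' processing notes, the R package affy was used; its version and settings, and the genome build, are not stated in the labels. The log2 unit was read from the deposited values, whose array quartiles nearly coincide (5.39 to 5.41 and 8.62 to 8.64), so a global difference in RNA content would not be seen.

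Gene names came from the platform annotation; all 54 proteasome probe sets kept their symbol in the RefSeq table (GRCm38.p6, names only). The 6617 lowest-numbered probe sets, none with a symbol, were left out of the variance test. That test was an intercept-only limma 3.58.1 fit in R 4.3.3, with each variance set against a robust mean-dependent prior. Benjamini-Hochberg adjustment was over 28939 probe sets. The test was also run on simulated data, whose added shifts were larger than the range of any proteasome gene. That run does not show whether differences as small as theirs would be called. Of 123 listed genes of other organs, 113 set the background limit. Promoter windows came from a RefSeq table. Everything else was computed with pandas 2.3.3 and numpy 2.4.6 under Python 3.11.15. The genes, lists (10 lists of other genes among them) and tests were chosen with earlier results of these data known. Genes outside the Psm families were named as the leading measured genes of a list, members on the minority side of the background limit where these were 5 or fewer, or as chosen after their values were seen. The alternatives tried were leaving out each array, median centring, quantile normalization, other limits, other probe set choices, other priors, and keeping the low-numbered block.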

Additional observations from a re-analysis of the deposited data

How the results depend on the processing

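No paired analysis was possible because the arrays form 1 group. The count of 46 proteasome genes above background was unchanged under the mean of all probe sets and the median plus 1 limit, and was 44 with the 99th percentile. It was also unchanged under quantile normalization, median centring and without each array, but these could hardly change it. Median centring moves genes and limit alike, and quantile normalization keeps the order within an array. No proteasome gene lay above the limit on some arrays only, so leaving out an array could not alter the count. The median level was 9.83 with the mean of all probe sets of a gene, against 9.89, and 9.85 to 9.90 without each array. The median SD was 0.046 without array 1 and 0.120 to 0.127 without the others, against 0.116. The variance test called 0 proteasome probe sets under every setting run (limma, 0 at an unadjusted p under 0.05 except 1, of Psma6, without array 1). The core minus ATPase difference, whose alternatives were chosen after seeing the data, on array 1 was 0.16 without array 2 and 0.19 without array 3, against 0.23, and on array 3 its sign turned without array 1 (0.03, against -0.09). The values without array 1 of the subunit classes, active sites and ETS-matched genes were also added after seeing the data. The list's mean deviation on array 1 was -0.001 without array 2, against 0.012. The immune minus constitutive difference on array 2 was -0.002 without array 1, against 0.004; these last are near 0. Of the 48 genes' deviations on array 1, 3 changed sign under median centring, 6 under quantile normalization and 5 without array 2, all of at most 0.01, and 6 without array 3, the largest of them Psmg3 (-0.02, against 0.07). The number of arrays and the signal near background of Psmg3, Psmg4 and Psmb11 limit the results.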

Other observations

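The genes that tag and carry proteins to the proteasome were above background too, 11 of 11 measured, beside 41.6% of all genes. Their list held 18 symbols, aliases among them, and the rest were not measured. Vcp, the segregase that extracts ubiquitin-tagged proteins, had 11.28, 11.22 and 11.19 on arrays 1, 2 and 3, and its cofactors Ufd1 and Nploc4 averaged 9.91 and 10.06. Uba6, a ubiquitin-activating enzyme, averaged 8.94. The median SD of this list over the arrays was 0.066, beside 0.116 for the proteasome genes. Its widest spread was that of Ubqln2, a ubiquilin chosen after its values were seen, with 9.03, 8.48 and 8.50 (limma variance test, unadjusted p = 0.029, adjusted p = 0.988). The 9 measured proliferation genes, Mki67, Top2a, Pcna and Mcm2 among them, all lay above background, beside 41.6% of all genes. The mean deviations of these 9 were 0.04, -0.05 and 0.01 on arrays 1, 2 and 3.

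The other motifs searched were about as frequent in proteasome windows as in windows of genes above background when all classes were pooled. An E-box lay in 23.3% of proteasome windows and 24% of windows of genes above background, a CCAAT match in 32.6% and 35.5%, an antioxidant response match in 11.6% and 11.5%, a RUNX match in 2.33% and 3.15%, and an interferon factor match in 6.98% and 5.89%. Classes differed in their counts for other motifs too, with few windows each and no test. CCAAT lay in 6 of 12 core windows (50%) and 4 of 15 cap windows (26.7%), and an E-box in 1 of 12 core windows (8.33%), 0 of 6 ATPase windows and 3 of 9 non-ATPase windows (33.3%). Of the 3 immune catalytic windows, 0 held the interferon factor letters, which says only that these letters are not in the 250 bases before the listed starts. The antioxidant response matches lay before Psmb5, Psmb6, Psmc6, Psmd9 and Psmd12.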
